A study of Sus scrofa with 6 samples.

Results

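Eicosanoids are signalling lipids made from arachidonic acid, and the genes described here encode the enzymes of their synthesis in 3 branches. The prostaglandin branch was represented by PTGS1, PTGS2, PTGES, PTGIS and PTGDS, the thromboxane branch by TBXAS1, and the leukotriene branch by ALOX5, ALOX5AP, LTA4H and LTC4S. Members were taken by gene symbol, and the rule uses none of their values, although the set was proposed with earlier results of these data known. Of the 10 symbols, 9 were matched among the 30477 genes in the expression table, and PTGDS is not analysed here. RNA sequencing had been performed on the abdominal aorta of male Wuzhishan miniature pigs, a small Chinese breed, whose age the sample labels give as 3 to 4 months. The methods give an older age on acquisition, before the feeding. The feeding lasted 6 months, so 3 to 4 months cannot be the age at sampling, and the exact age then is not settled here. Of the pigs, 3 had eaten normal chow (NC) and 3 a diet high in fat, cholesterol and fructose (HFCF) for 6 months. Each pig gave 1 library. The labels name no genetic alteration in either group, and diet was the only difference given between them. Each library came from a piece of artery wall holding several cell types.

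Phospholipase A2 frees arachidonic acid from membranes, after which the cyclooxygenases or a lipoxygenase oxidise it. The cyclooxygenases make the unstable intermediate prostaglandin H2, from which terminal synthases make prostaglandin E2, prostacyclin or thromboxane A2. In arteries, prostacyclin from the vessel wall relaxes smooth muscle and restrains platelets, whereas thromboxane A2, made largely by platelets and macrophages, constricts vessels and activates platelets. The lipoxygenase route, used mainly by cells of the myeloid lineage, yields leukotriene A4, which is turned into the neutrophil attractant leukotriene B4 or into the cysteinyl leukotrienes that act on vessels and airways.

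Levels are FPKM, that is, fragments scaled by transcript length and by the mapped fragments of the library, so that genes of different length can be compared. Differences are HFCF minus NC on the scale of log2(FPKM + 0.1), which understates the change of genes with low levels. A gene was called when its adjusted p from limma, a linear model fitted across the 15384 genes whose mean FPKM was 0.1 or more, was below 0.05. These p-values weigh the difference between the diets against the spread among the 3 pigs of each group. limma draws that spread toward a trend over all tested genes. Depth could be estimated only in relative terms, from the size of the smallest steps between low values. It ran from 1 to 1.37 times that of the first NC pig. The number of fragments behind a level was therefore not known, and levels far below 1 FPKM may rest on few fragments. Summed FPKM was 272207 to 287141 in the NC pigs and 330222 to 338690 in the HFCF pigs, and the median difference over all tested genes was 0.32 (log2). Mitochondrial protein-coding genes took 4.55% to 6.78% of the sum in NC pigs and 8.79% to 13.2% in HFCF pigs. A mitochondrial ribosomal RNA gene (ENSSSCG00000018061) was 0.295 to 0.686 FPKM in NC pigs and 141 to 206 FPKM in HFCF pigs, so the libraries of the diets also differed in this non-coding RNA, and its part in the differences below was not tested. The tissue label fitted the smooth muscle markers, since MYH11, the smooth muscle myosin heavy chain, lay between 823.8 and 2201 FPKM in all 6 libraries.

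The leukotriene branch held every member that was called. ALOX5, ALOX5AP and LTC4S rose in the HFCF pigs and LTA4H did not pass the test, and neither did any of the 4 prostaglandin enzymes analysed or the thromboxane synthase. In all, 3 of 9 members (33.3%) were higher and 0 were lower, where 28.9% of all tested genes were called, 22.8% as higher and 6.16% as lower. The count over the 9 members was therefore near the background. PTGS1 was the 1 member of the other branches with an unadjusted p below 0.05. The median difference of the 9 members was 1.02 (log2), against 0.32 over all tested genes, and it fell to 0.53 without the first HFCF pig. It was 1.92 in the leukotriene branch and 0.44 in the prostaglandin branch, where it was -0.08 without the first NC pig and 0.79 without the second. Measured from the median of all genes, the log2 differences of ALOX5, LTC4S and ALOX5AP were 2.90, 1.97 and 1.23, and those of TBXAS1, PTGS1 and PTGS2 were 0.93, 0.69 and 0.55, while PTGES, LTA4H and PTGIS lay below it at -0.32, -0.40 and -0.50. Whether the branches differed from each other was not tested. The study took a fold change above 2 or below 0.5 with a p below 0.05, and its methods name no test. With those thresholds on the ratio of group means and the unadjusted limma p, the members again gave 3 higher and 0 lower. By this rule 25.5% of all tested genes passed, 20.7% as higher and 4.82% as lower, and these are not the study's own counts. The 3 called members were also those whose NC and HFCF values did not overlap, where 36.1% of all tested genes lay wholly higher in the HFCF pigs. Of all calls 78.7% were higher, and this share was 50.8% with median-ratio scaling, 49.5% with quantile normalization, 59.3% after rescaling to TPM and 67.5% after rescaling without mitochondrial genes. The count of members stayed at 3 higher and 0 lower under these 4 scalings.

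**Figure D1:**
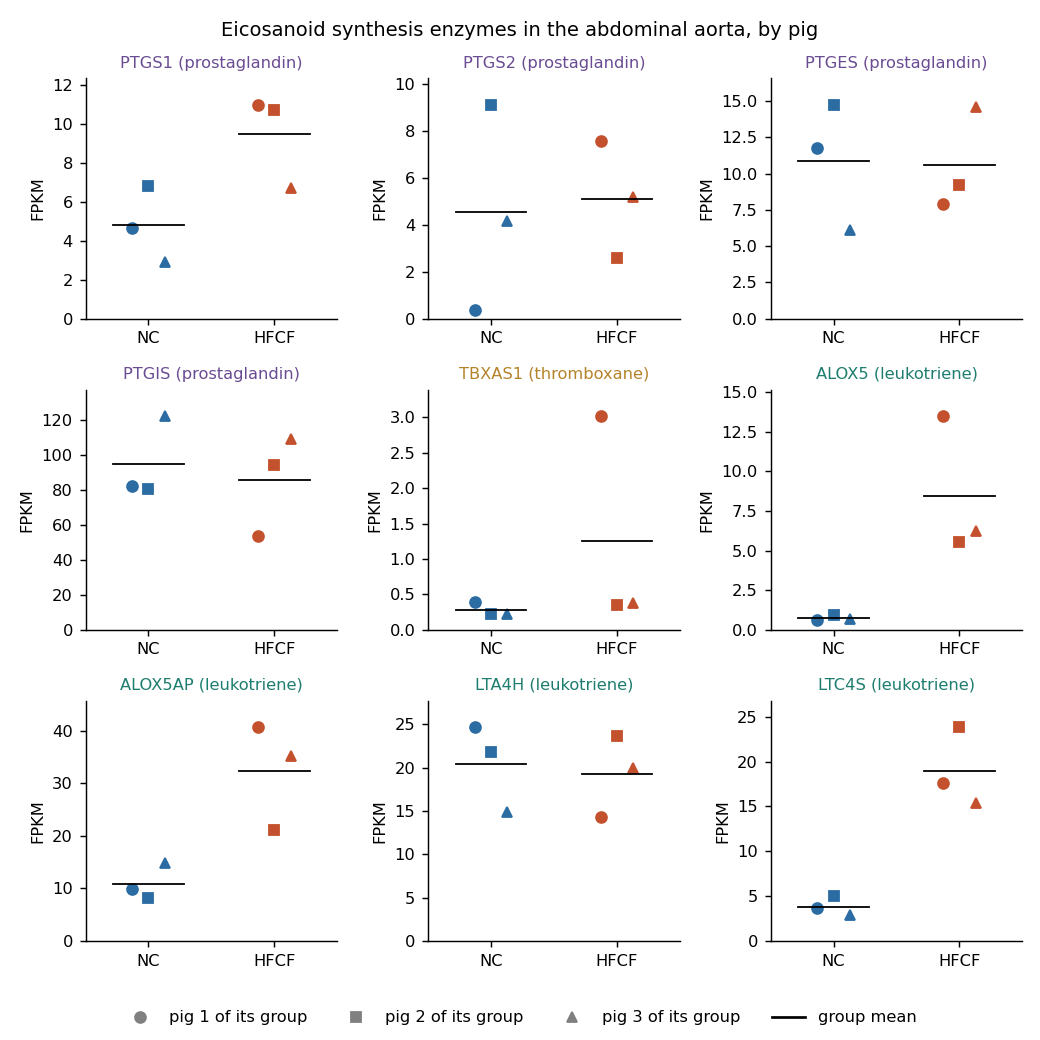
FPKM of each of the 9 enzymes in each pig, with NC pigs on the left and HFCF pigs on the right of every panel, marker shape for the pig's number within its group and a black line for the group mean (n = 3). ALOX5, ALOX5AP and LTC4S show no overlap between the diets, whereas TBXAS1 is high in the first HFCF pig alone, at 3.01 FPKM.

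ALOX5 (ENSSSCG00000010404) encodes arachidonate 5-lipoxygenase, which carries out the first steps from arachidonic acid to leukotriene A4. Its level was 0.647, 0.911 and 0.704 FPKM in the NC pigs and 13.5, 5.56 and 6.26 FPKM in the HFCF pigs. Every HFCF pig stood above every NC pig, and the first HFCF pig was the highest. The means were 0.754 ± 0.139 and 8.44 ± 4.39 FPKM (SD, n = 3 each), a ratio of 11.2. The log2 difference was 3.22 (SE 0.36, 95% interval 2.37 to 4.07, limma adjusted p = 0.00193).

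ALOX5AP (ENSSSCG00000009330) encodes the membrane protein that presents arachidonic acid to the lipoxygenase. It was measured at 9.80, 8.11 and 14.9 FPKM in the NC pigs and at 40.7, 21.2 and 35.1 FPKM in the HFCF pigs. The groups were again apart, with the second HFCF pig closest to the NC range. From 10.9 ± 3.51 to 32.3 ± 10.1 FPKM, the ratio was 2.96 and the log2 difference 1.55 (SE 0.31, 95% interval 0.82 to 2.28, limma adjusted p = 0.0122). Without the first NC pig the log2 difference was 1.50 and the limma adjusted p was 0.0536, so this call was lost. Over all 16 alternatives its adjusted p ranged from 0.0108 to 0.0536.

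LTC4S (ENSSSCG00000028488) encodes leukotriene C4 synthase, which joins glutathione to leukotriene A4 and so opens the cysteinyl leukotriene arm. NC pigs had 3.64, 5.01 and 2.84 FPKM and HFCF pigs had 17.6, 23.8 and 15.4 FPKM. The lowest HFCF pig was thus well above the highest NC pig, and here the second HFCF pig was the highest. The means of 3.83 ± 1.10 and 18.9 ± 4.38 FPKM gave a ratio of 4.94 and a log2 difference of 2.29 (SE 0.26, 95% interval 1.68 to 2.90, limma adjusted p = 0.00203).

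LTA4H (ENSSSCG00000000891) encodes leukotriene A4 hydrolase, the enzyme of the competing arm that makes leukotriene B4. Its values were 24.6, 21.8 and 14.9 FPKM in NC pigs and 14.3, 23.7 and 19.9 FPKM in HFCF pigs. The ranges lay on top of each other, at 20.4 ± 5.0 against 19.3 ± 4.71 FPKM. The log2 difference was -0.08, with a 95% interval of -0.69 to 0.52 (limma adjusted p = 0.834). Its sign turned when the first NC pig or the first HFCF pig was left out.

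Macrophage markers were higher in the HFCF pigs, as were ALOX5, ALOX5AP and LTC4S. All 12 listed markers were called, with a median log2 difference of 3.85, and their summed level was 58.8 to 70.6 FPKM in the NC pigs and 814.7 to 2071 FPKM in the HFCF pigs. C1QC, a complement subunit made by macrophages, was 11.9 to 20.8 FPKM in NC pigs and 272.7 to 770.7 FPKM in HFCF pigs. C1QB and TYROBP, the second a signalling adaptor of myeloid cells, showed the same separation between the diets, with log2 differences of 4.43 and 3.73. When 1 pig was left out, 10 or 11 of the 12 were called, and MRC1, named after its values were seen, kept its call in 3 of 16 alternatives. Contractile smooth muscle markers moved the other way, with 5 of 8 lower and a median log2 difference of -1.03, and a sum of 15230 to 21460 FPKM in NC pigs and 7703 to 12450 FPKM in HFCF pigs. ACTA2, TAGLN and MYH11, contractile and actin-binding proteins, had log2 differences of -0.98, -0.60 and -1.08, and TAGLN did not pass the test. The count of 5 was 1 without the first NC pig, 2 without the second HFCF pig, 3 without the second NC pig or without the first HFCF pig, and 2 with no filter on low values. It was 6 without the third HFCF pig, with median-ratio scaling, with quantile normalization, and after rescaling to TPM or without mitochondrial genes. The first HFCF pig had the highest macrophage sum and the lowest smooth muscle sum of all 6 pigs. ALOX5 and ALOX5AP were also highest in that pig, whereas LTC4S was highest in the second HFCF pig. Of the HFCF pigs, the third had the lowest macrophage sum and LTC4S level, and the second the lowest ALOX5 and ALOX5AP levels. In whole tissue, more or fewer cells of a type and more or less RNA per cell cannot be told apart, and the part of cell type in the enzyme differences was not tested.

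**Figure D2:**
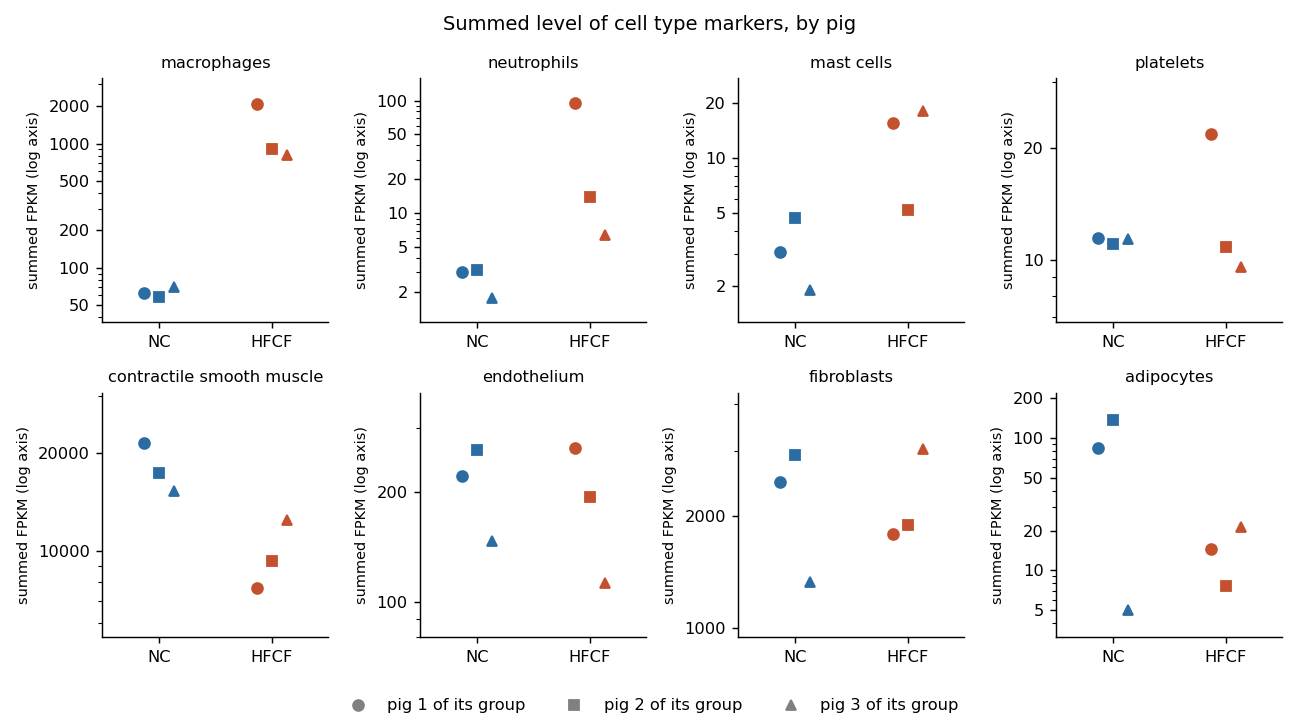
Summed FPKM of the markers of 8 cell types in each pig, on log axes, with NC pigs on the left and HFCF pigs on the right of each panel. The macrophage sums of the HFCF pigs, 814.7 to 2071, all lie above those of the NC pigs, and the neutrophil and platelet sums are highest in the first HFCF pig, at 95.2 and 21.8.

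The other marker lists held fewer called genes. Of the 5 neutrophil markers tested, 1 was higher, CSF3R, and the summed level of the list was 1.78 to 3.16 FPKM in NC pigs and 95.2, 13.8 and 6.44 FPKM in the HFCF pigs. S100A8, a calcium-binding protein abundant in neutrophils, peaked in the first HFCF pig at 11.1 FPKM and was at most 0.219 elsewhere. S100A12 peaked there at 27.3 FPKM with at most 3.35 elsewhere, and MPO stayed below 0.1 FPKM in all libraries. ELANE and PRTN3, also of this list, did not peak in that pig, at 0.714 and 0.127 FPKM. Their log2 differences were 0.03 and -0.55, and both were named after their values were seen. Of 4 mast cell markers, FCER1A and HDC were higher, and the sum was 1.92 to 4.72 FPKM in NC pigs and 5.23 to 17.9 FPKM in HFCF pigs. KIT and MS4A2, markers of the same list, did not pass the test, and HDC was named after its value was seen. The call of FCER1A was kept in 5 of 16 alternatives and that of HDC in 10 of 15. The number of mast cell markers called was 0 with quantile normalization and with a block by replicate number. It was also 0 without the first NC pig, the third NC pig or the third HFCF pig. Endothelial markers summed to 147.0 to 261.1 FPKM in NC pigs and 112.7 to 265.5 FPKM in HFCF pigs. Of the 8, 0 were called by limma and 3 had an unadjusted limma p below 0.05, 2 of them higher and 1 lower. Of 8 fibroblast markers only LUM was higher, another gene named after its value was seen, with sums of 1332 to 2912 and 1791 to 3037 FPKM. Adipocyte markers, with 0 of 5 called by limma and 0 at an unadjusted p below 0.05, ran from 4.98 to 136.7 FPKM within the NC group and from 7.61 to 21.2 FPKM in the HFCF pigs. Without the third NC pig, the lowest of its group, 4 of these 5 were called lower, with a median log2 difference of -2.21.

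TBXAS1 (ENSSSCG00000016504), thromboxane A synthase, was the least abundant member in both groups. It was 0.390, 0.218 and 0.217 FPKM in the NC pigs and 3.01, 0.344 and 0.383 FPKM in the HFCF pigs. The groups overlapped, since the first NC pig exceeded the second and the third HFCF pigs, and the HFCF mean of 1.25 ± 1.53 FPKM rested on the first HFCF pig. Against 0.275 ± 0.10 FPKM in NC pigs the log2 difference was 1.25 (SE 0.76, 95% interval -0.53 to 3.04, limma adjusted p = 0.249). Without the first HFCF pig it was 0.34 (limma adjusted p = 0.503, the highest over 15 alternatives, the lowest being 0.164). That pig also had the highest sum of platelet markers, 21.8 FPKM against 9.55 to 11.4 FPKM in the other 5 pigs, and 0 of the 7 platelet markers tested were called by limma, with 1 at an unadjusted p below 0.05. PPBP, a platelet granule chemokine, was 5.71 FPKM there and at most 0.0913 elsewhere. TREML1, a platelet receptor, was 1.56 FPKM there and listed at 0 elsewhere. GP6 and GP1BB also peaked in that pig, at 1.62 and 1.445 FPKM. GP1BA did not, at 0.351 FPKM there and 0.217 to 0.659 FPKM elsewhere. TREML1, GP6, GP1BB and GP1BA were named after their values were seen. ITGA2B and GP9, also markers of the platelet list, were between 7.0 and 8.25 FPKM and between 1.73 and 3.71 FPKM over all 6 pigs. The highest ITGA2B value was that of the first HFCF pig, at 8.25 FPKM against at most 7.93 FPKM elsewhere, and the highest GP9 value was that of the first NC pig. The macrophage sum of the same pig was likewise the highest, at 2071 FPKM. The part of these cells in the TBXAS1 level was not tested.

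In the prostaglandin branch, PTGS1 came closest to a call. PTGS1 (ENSSSCG00000005533) encodes cyclooxygenase-1, the form present in most tissues. It was 4.67, 6.80 and 2.89 FPKM in the NC pigs and 10.9, 10.7 and 6.72 FPKM in the HFCF pigs. The third HFCF pig fell just below the second NC pig, so the groups overlapped slightly. At 4.78 ± 1.96 and 9.45 ± 2.37 FPKM the ratio was 1.98 and the log2 difference 1.02 (SE 0.34, 95% interval 0.21 to 1.82). The unadjusted limma p was 0.0207 and the adjusted p 0.0636, which did not pass. Without the second NC pig the log2 difference was 1.31 with an adjusted p of 0.0439 by limma, and over 16 alternatives the adjusted p ran from 0.0355 to 0.186.

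PTGS2 (ENSSSCG00000015579), cyclooxygenase-2, is the inducible form, which many cells switch on within hours of an inflammatory stimulus. Its values were 0.355, 9.12 and 4.16 FPKM in NC pigs and 7.60, 2.57 and 5.21 FPKM in HFCF pigs. The NC pigs alone spanned 25.7-fold and the HFCF pigs 2.95-fold, so that both the lowest and the highest value came from chow-fed animals. The means were 4.55 ± 4.39 and 5.13 ± 2.52 FPKM, and the log2 difference of 0.87 had a 95% interval of -1.60 to 3.34 (limma adjusted p = 0.563). It became -0.39 without the first NC pig. With this spread, differences of several fold in either direction were not detectable.

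PTGES (ENSSSCG00000005688), the inducible prostaglandin E synthase that works with PTGS2, was 11.7, 14.7 and 6.12 FPKM in NC pigs and 7.93, 9.25 and 14.6 FPKM in HFCF pigs. The 2 ranges nearly coincided, at means of 10.9 ± 4.37 and 10.6 ± 3.52 FPKM. Its log2 difference was 0.0045 (95% interval -0.86 to 0.87, limma adjusted p = 0.993), and its sign changed with every other scaling tried.

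PTGIS (ENSSSCG00000007463), prostacyclin synthase, was the most abundant member by far. It was 82.3, 80.5 and 122.3 FPKM in NC pigs and 53.9, 94.3 and 109.2 FPKM in HFCF pigs. The HFCF pigs lay both below and within the NC range, and the first HFCF pig was the lowest. The means were 95.02 ± 23.7 and 85.8 ± 28.6 FPKM, with a log2 difference of -0.18 (95% interval -0.89 to 0.52, limma adjusted p = 0.68). It was 0.12 without the first HFCF pig.

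**Figure D3:**
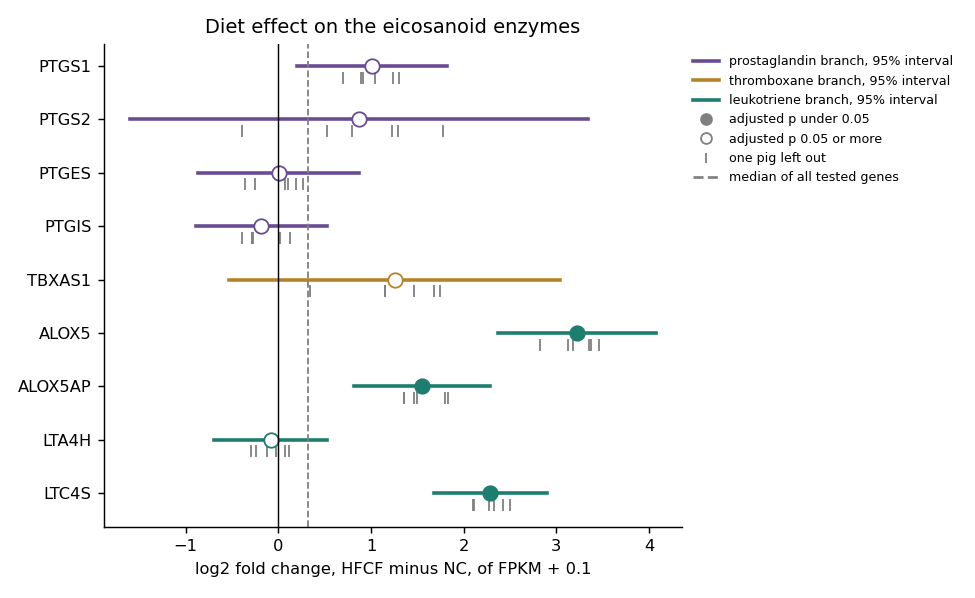
Log2 difference of each enzyme, HFCF minus NC on the log2(FPKM + 0.1) scale, with its 95% interval, filled points for called enzymes, grey ticks for the values with 1 pig left out, colours for the branches, and the median over all tested genes, 0.32, as a dashed line. The intervals of ALOX5, LTC4S and ALOX5AP lie wholly above the dashed line, from 0.82 upward, whereas those of the other enzymes cross it.

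Summed over the 4 prostaglandin enzymes, the level was 99.0, 111.1 and 135.5 FPKM in NC pigs and 80.4, 116.9 and 135.7 FPKM in HFCF pigs, most of it PTGIS. The 4 leukotriene genes summed to 38.7, 35.8 and 33.3 FPKM in NC pigs and to 86.0, 74.2 and 76.7 FPKM in HFCF pigs. The leukotriene sum thus lay below the prostaglandin sum in each NC pig and in the second and the third HFCF pigs, and slightly above it in the first HFCF pig. The group means were 115.2 ± 18.6 and 111.0 ± 28.1 FPKM for the prostaglandin branch and 35.9 ± 2.72 and 79.0 ± 6.25 FPKM for the leukotriene branch.

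The order of the levels, as mean FPKM in NC pigs, was PTGIS, LTA4H, ALOX5AP, PTGES, PTGS1, PTGS2, LTC4S, ALOX5 and TBXAS1. Neighbours from ALOX5AP down to LTC4S overlapped between pigs, while PTGIS stood apart above LTA4H, LTA4H bordered on ALOX5AP, and ALOX5 and TBXAS1 stood apart below. In HFCF pigs the order was PTGIS, ALOX5AP, LTA4H, LTC4S, PTGES, PTGS1, ALOX5, PTGS2 and TBXAS1. Here ALOX5AP, LTA4H and LTC4S overlapped as neighbours, and so did those from PTGES to TBXAS1, with a gap between LTC4S and PTGES. LTC4S, at 18.9 FPKM, had therefore come level with LTA4H, at 19.3 FPKM, and ALOX5, at 8.44 FPKM, had come within the range of the cyclooxygenases. The first HFCF pig had the highest value of its group for 5 of the 9 enzymes and the lowest for PTGES, PTGIS and LTA4H.

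Ratios of FPKM within a pig do not depend on how its library was scaled, and are given first for each pair. Tests used the log2 ratio of FPKM + 0.1, which draws the ratio of a low gene toward 1 and therefore depends slightly on scaling. Differences in its mean were tested by an exact permutation test, two-sided, over 3 ratios, and with 3 pigs against 3 its p cannot fall below 0.1. ALOX5AP exceeded ALOX5 by 15.1, 8.91 and 21.1 times in the NC pigs and by 3.01, 3.81 and 5.61 times in the HFCF pigs. The groups did not overlap, and the mean log2 ratio of FPKM + 0.1 was 3.66 ± 0.60 in NC pigs and 1.99 ± 0.45 in HFCF pigs, a difference of -1.67 (exact p = 0.1, 0.3 after Benjamini-Hochberg adjustment). With a pseudocount of 1 the difference was -0.86 (exact p = 0.2). The log2 difference of the lipoxygenase was thus the larger of the pair, in a comparison too small to pass the test.

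PTGIS exceeded TBXAS1 by 211, 369 and 565 times in the NC pigs and by 17.9, 274 and 285 times in the HFCF pigs. The low value again came from the first HFCF pig, while the other HFCF pigs lay within the NC range. The log2 difference of -1.43 had an exact permutation p of 0.4 (0.6 adjusted), and it was -0.22 without the first HFCF pig and -0.80 with a pseudocount of 1. PTGS2 stood to PTGS1 as 0.0759, 1.34 and 1.44 in NC pigs and as 0.694, 0.241 and 0.775 in HFCF pigs, so the NC pigs held both extremes (log2 difference -0.15, exact permutation p = 1). The ratio of LTC4S to LTA4H, chosen after the values were seen and given without a test, was 0.148, 0.230 and 0.190 in NC pigs and 1.23, 1.01 and 0.773 in HFCF pigs.

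**Figure D4:**
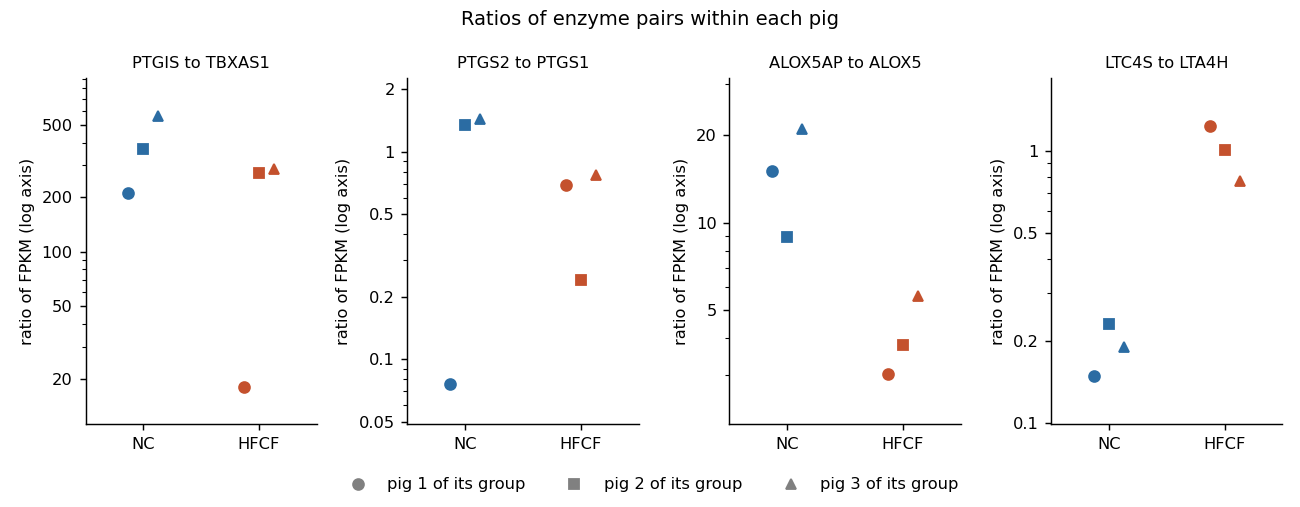
Ratio of FPKM between pairs of enzymes in each pig, on log axes, with NC pigs on the left and HFCF pigs on the right of each panel. The ALOX5AP to ALOX5 ratios of the HFCF pigs, 3.01 to 5.61, all lie below those of the NC pigs, and the PTGIS to TBXAS1 ratio stands apart at 17.9 in the first HFCF pig.

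Beyond the members, 58 further genes of arachidonic acid release, conversion, breakdown and reception were listed, of which 48 were matched and 35 passed the filter on low values. Of these, 7 (20.0%) were higher in the HFCF pigs and 0 were lower, which is near the 22.8% and 6.16% of all tested genes. Their median log2 difference was 0.42. Without the first NC pig 3 were called, and at an unadjusted p below 0.05 there were 9 higher and 1 lower. With quantile normalization 4 were higher and 1 lower, and with median-ratio scaling 5 were higher and 3 lower, namely PRXL2B, EPHX2 and PLA2G4B.

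At the head of the pathway, 1 of 5 phospholipase genes tested rose. PLA2G4A, the cytosolic phospholipase A2 that selects arachidonic acid, was 2.28, 3.05 and 3.57 FPKM in NC pigs and 6.64, 7.66 and 5.09 FPKM in HFCF pigs. Its groups did not overlap (log2 difference 1.10, limma adjusted p = 0.0167), and the call was lost without the first NC pig or the second HFCF pig and with quantile normalization. PLA2G4B, the most abundant of these phospholipases, was 11.9, 12.8 and 13.2 FPKM in NC pigs and 8.05, 11.1 and 11.7 FPKM in HFCF pigs, and its log2 difference of -0.31 did not pass (limma adjusted p = 0.232).

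Of the 5 other prostaglandin synthases tested, 2 rose. AKR1B1, an aldose reductase that can also make prostaglandin F2 alpha, was 26.3, 25.4 and 34.7 FPKM in NC pigs and 115.8, 88.1 and 86.8 FPKM in HFCF pigs. It separated the diets clearly (log2 difference 1.75, limma adjusted p = 0.00173) and was called under all 16 alternatives. HPGDS, the prostaglandin D synthase of blood-derived cells, was 0.136 FPKM in the first NC pig and listed at 0 in the others, against 1.86, 0.273 and 1.21 FPKM in HFCF pigs (limma adjusted p = 0.0217). Its call held under 11 of 15 alternatives and was lost when the second or the third NC pig, or the first or the third HFCF pig, was left out. Of the 4 breakdown and transport genes 0 were called by limma and 1 had an unadjusted p below 0.05, and the most abundant, PTGR1, a prostaglandin reductase, had a log2 difference of 0.19 (limma adjusted p = 0.356).

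Among 6 genes of leukotriene and glutathione handling, MGST3, a membrane glutathione transferase related to LTC4S, was higher. It was 33.7, 37.9 and 26.4 FPKM in NC pigs and 54.8, 59.0 and 54.9 FPKM in HFCF pigs. The difference was smaller than that of LTC4S, at 0.80 on the log2 scale (limma adjusted p = 0.0133), and the call was lost with median-ratio scaling. ALOX15, the 1 other lipoxygenase tested, had a log2 difference of 0.13 (limma adjusted p = 0.774). EPHX1, the more abundant of the 2 epoxide hydrolases, had -0.05 (limma adjusted p = 0.921).

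Of 8 prostanoid receptors, 2 were higher. PTGER4, a receptor of prostaglandin E2 that raises cyclic AMP, was 1.18, 1.46 and 0.608 FPKM in NC pigs and 4.76, 2.47 and 3.19 FPKM in HFCF pigs (log2 difference 1.62, limma adjusted p = 0.0201), a call lost without the first NC pig or the first HFCF pig and with quantile normalization. PTGDR2, a prostaglandin D2 receptor of leukocytes, was at most 0.185 FPKM in NC pigs and 0.389 to 0.581 FPKM in HFCF pigs (log2 difference 1.20, limma adjusted p = 0.0408), and this call was kept in 4 of 15 alternatives, being lost on leaving out any pig but the first HFCF pig. PTGER3, the most abundant receptor, had a log2 difference of -0.46 (limma adjusted p = 0.267).

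Of 4 leukotriene receptors tested, CYSLTR1, the receptor of leukotrienes made downstream of LTC4S, was higher. It was 0.0391, 0.261 and 0.132 FPKM in NC pigs and 2.41, 1.08 and 0.704 FPKM in HFCF pigs. All HFCF pigs stood above all NC pigs (log2 difference 2.56, limma adjusted p = 0.0146), and the call was lost without the first NC pig. CYSLTR2, more abundant than CYSLTR1 in every pig, was 0.887, 1.58 and 0.440 FPKM in NC pigs and 4.13, 1.14 and 1.67 FPKM in HFCF pigs. Its groups overlapped (log2 difference 1.12, limma adjusted p = 0.181).

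**Figure D5:**
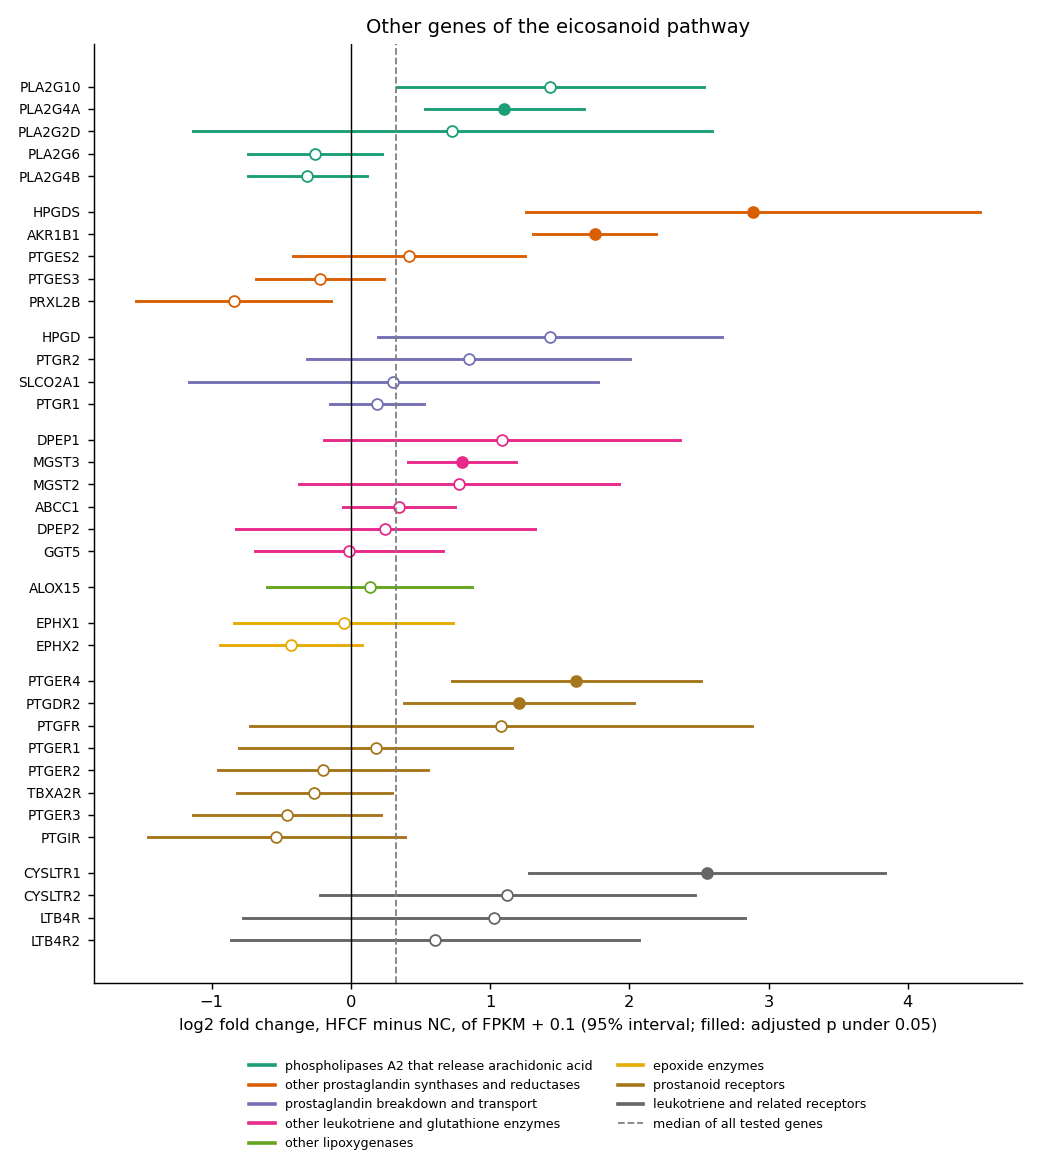
Log2 difference, HFCF minus NC on the log2(FPKM + 0.1) scale, of each of the 35 further pathway genes tested, grouped by role, with filled points for the 7 genes called and a dashed line at the median of all tested genes, 0.32. The called genes are spread over 5 roles, and no gene was called lower.

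By the pathway annotation in the table, 8 of the 9 members belonged to arachidonic acid metabolism, all but ALOX5AP. That annotation held 55 genes, of which 35 were tested, 6 (17.1%) were higher by limma, below the 22.8% of all tested genes, and 0 were lower, with a median log2 difference of 0.44.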

How the data were processed

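Per the labels and methods, messenger RNA of 6 abdominal aortas was sequenced, and the authors trimmed reads with cutadapt 1.9, checked them with FastQC, aligned them to the pig genome with HISAT2 and estimated expression with StringTie. The deposited values are FPKM per gene, made by the authors; they are not counts, so no count model was used, and 0.0001 was read as 0. Symbols came from the table, or from an Ensembl ID table where only an ID was given. Coordinates and sequences are not used here.

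limma 3.58.1 (R 4.3.3) was fitted to log2(FPKM + 0.1) for genes whose mean FPKM was 0.1 or more. Diet was the only factor, the variance prior followed a trend, and p-values were adjusted by Benjamini-Hochberg over every gene fitted. The fit was first tested on simulated data, with independent noise for each gene and no difference in scaling between the diets. That test therefore does not bear on the scaling of these libraries. The smallest exact p for ratios is 0.1. Alternatives changed the pseudocount, the filter, the scaling, the variance trend, the call rule, the replicate block and each library in turn. The members and lists were chosen with earlier results of these data known. Named were all members, called pathway genes and the most abundant gene of each role, up to 5 called genes for each role of the neighbouring pathways, and up to 3 abundant markers per cell type. Some further markers were named after their values were seen. PTGDS is not analysed here.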

Additional observations from a re-analysis of the deposited data

How the results depend on the processing

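The 9 members were called in the same numbers, 3 higher and 0 lower, under most of the 17 alternatives, the exceptions being 2 higher without the first NC pig and 4 higher without the second NC pig or with a block by replicate number. ALOX5 and LTC4S passed in 16 of 16 alternatives, with log2 differences of 2.34 to 3.46 and 1.94 to 2.50. The deviations of same-numbered pigs from their group means correlated at 0.0206, -0.0795 and -0.0724. These values gave no sign of pairing by number but cannot exclude it, and the labels name no pairing. With the replicate block, 2772 genes were called in place of 4453, and PTGS1 passed (limma adjusted p = 0.0355). Among the members no other call changed under the block. Among the further genes the calls of PLA2G4A, PTGDR2, LPCAT1, PAFAH1B1, MRC1, FCER1A, HDC, ACTA2 and CNN1 were lost. In the endothelial list the block gave 1 higher and 1 lower call, where the main fit had 0. Leaving out 1 pig gave 2399 to 3562 called genes, and the lowest counts came without the first NC pig. The further pathway genes called numbered 4 with a mean FPKM of at least 1 and 3 to 7 when 1 pig was left out. Signs turned for members that had not passed. Leaving out 1 pig moved PTGS2 between -0.39 and 1.78, PTGES between -0.36 and 0.27, PTGIS between -0.39 and 0.12 and LTA4H between -0.29 and 0.12. Single values behind these turns were 0.015 for PTGIS without the third NC pig, 0.07 for LTA4H without the first NC pig and -0.25 for PTGES without the third HFCF pig. PTGES was also -0.00014 with a pseudocount of 1, -0.35 with median-ratio scaling, -0.25 with quantile normalization, -0.25 after rescaling to TPM and -0.15 after rescaling without mitochondrial genes, an alternative chosen after seeing the data. The log2 ratio of PTGS2 to PTGS1 differed by -1.43 to 0.52 when 1 pig was left out, with 0.47 without the second NC pig and 0.38 without the second HFCF pig. That of ALOX5AP to ALOX5 was -1.99 to -1.39 when 1 pig was left out and -0.86 with a pseudocount of 1, and kept its sign. TBXAS1 was below the filter of a mean FPKM of at least 1, so it has no value there. Where signs turned, the cause was not tested. Values far below 1 FPKM may rest on few fragments. Such values were those of TBXAS1 in all pigs but the first HFCF pig, and of HPGDS, PTGDR2 and CYSLTR1 in the NC pigs.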

Other observations

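Platelet-activating factor is a lipid mediator whose synthesis starts from the same membrane phospholipids as that of the eicosanoids. Of 8 genes for its synthesis, breakdown and reception, 6 were higher in the HFCF pigs by limma, and all 8 lay without overlap above the NC pigs, where 22.8% of all tested genes were called higher and 36.1% did not overlap in that direction. PLA2G7, the circulating acetylhydrolase that degrades the factor, was 0.455, 0.630 and 0.240 FPKM in NC pigs and 8.10, 8.09 and 4.95 FPKM in HFCF pigs. It had the largest difference of the 8 (log2 difference 3.76, limma adjusted p = 0.0012) and was called in all 16 alternatives. PTAFR, the receptor, was 1.43, 0.827 and 0.880 FPKM in NC pigs and 10.1, 3.25 and 3.36 FPKM in HFCF pigs, with the first HFCF pig far above the others (log2 difference 2.14, limma adjusted p = 0.0163). LPCAT2, the acyltransferase of inflammatory cells that completes the factor, had a log2 difference of 2.09 (limma adjusted p = 0.0186), and its relative LPCAT1 had 0.83 (limma adjusted p = 0.0153). PAFAH1B3, a subunit of an intracellular acetylhydrolase, had 0.95 (limma adjusted p = 0.0196). The count of 6 was 2 without the first NC pig or without the third, 3 without the second HFCF pig, 4 without the second NC pig or without the first HFCF pig, 3 with median-ratio scaling and 1 with quantile normalization.

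Endocannabinoids are a further group of lipid mediators, some of them broken down to arachidonic acid. Of 9 genes tested, 1 was higher. ABHD12, a serine hydrolase of lysophosphatidylserine and of monoacylglycerols, was 12.4, 11.1 and 10.8 FPKM in NC pigs and 103.9, 52.2 and 55.7 FPKM in HFCF pigs. The groups were far apart (log2 difference 2.55, limma adjusted p = 0.00169), and it was called in 16 of 16 alternatives. MGLL, the monoacylglycerol lipase and the most abundant of the list, was 112.9, 82.1 and 134.9 FPKM in NC pigs and 55.9, 83.7 and 56.8 FPKM in HFCF pigs, and was named after its values were seen. Its log2 difference of -0.74 did not pass (limma adjusted p = 0.0571). It was called lower in 5 of 16 alternatives, which were median-ratio scaling, rescaling to TPM, rescaling without mitochondrial genes, and leaving out the second NC or the second HFCF pig, and its adjusted p ran from 0.0202 to 0.157 over them all.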
